A study of Mus musculus with 7 samples.

Results

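The genes described here are the platelet-derived growth factor (PDGF) system, with its receptor genes Pdgfra and Pdgfrb and its ligand genes Pdgfa, Pdgfb, Pdgfc and Pdgfd, together with 4 genes used to mark mesenchymal progenitor cells, Prrx1, Ly6a, Thy1 and Cspg4. They were taken by gene symbol, are all reported whatever their values, and make up 10 of the 42689 genes to which the transcripts were assigned. These genes and the lists of other genes below were chosen with earlier results of these data known. Each of the 10 passed the filter on low counts. RNA was sequenced from hindlimb tendon of mice of C57BL/6 background, in a model of tissue repair and ectopic bone formation after trauma. The tenotomy group (n = 2 libraries) was the injured tendon 3 weeks after a burn and a cut through the Achilles tendon. In that injury a metal block at 60 °C was held on the back for 18 s over 30% of the body surface, and the tendon of 1 hind limb was cut at its midpoint in the same session. The contralateral group (n = 3) was the uncut tendon of the other hind limb of burned and tenotomized mice, so those animals also carried the burn and a tendon wound elsewhere. The uninjured group (n = 2) came from wild-type mice with neither burn nor tenotomy. The samples spanned the tendon from the calf muscle to the heel bone. The labels do not say which libraries came from separate animals, so the p-values measure only the spread between these libraries, which may be technical.

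PDGF ligands are secreted dimers that bring receptor chains together at the cell surface, which switches on the receptors' tyrosine kinases and, through them, the Ras-MAP kinase, PI3 kinase and phospholipase C pathways. Ligands A and B are processed inside the cell, whereas ligands C and D are released in a latent form and are activated outside the cell by proteases such as tissue plasminogen activator and urokinase. Fibroblasts and mesenchymal progenitors of tendon and muscle typically carry PDGF receptor alpha, and pericytes and vascular smooth muscle typically carry PDGF receptor beta. Cells of this kind have been described as a source of scar, fat, cartilage and bone in injured limbs.

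Library totals lay between 25927171 and 36725106 estimated counts, of which 76.4% to 81.4% fell in the 5 largest features, ribosomal and related RNAs among them. Between 4934057 and 8375626 counts per library remained outside these features, and the 10 genes were read at 31 (Pdgfc) to 963 (Prrx1) counts per library. The tendon markers Scx, a tendon transcription factor, and Tnmd, the membrane protein tenomodulin, were present in every library, at 15 to 52 and at 175 to 1047 counts. The libraries labelled uninjured did not resemble each other. Their distance over all tested genes was 114.0 log2 CPM (Euclidean), whereas uninjured replicate 1, as labelled, was 59.6 and 61.1 away from the tenotomy libraries and uninjured replicate 2 lay 64.5 to 67.4 from the contralateral ones. CPM values are counts rescaled to the same library size. Results that rest on the uninjured group are therefore given with and without each of its libraries.

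At the tenotomy site, 7 of the 10 genes rose relative to the contralateral tendon (edgeR's quasi-likelihood test on all 7 libraries, Benjamini-Hochberg adjusted p under 0.05 over 16028 genes) and 0 fell. Those that rose were both receptors, the protease-activated ligands Pdgfc and Pdgfd, and the surface markers Ly6a, Thy1 and Cspg4. Pdgfa, Pdgfb and Prrx1 did not pass the test. Over all tested genes 29.0% passed it, 13.6% higher and 15.4% lower. The median log2 fold change was 0.94 over the 10 genes and -0.0012 over all tested genes. RNA of whole tissue was measured, so more cells of a type and more RNA per cell cannot be told apart. Without any 1 of the 3 contralateral or 2 tenotomy libraries, 0 of all 16028 genes passed, although 4487 to 6139 had an unadjusted p under 0.05, so the loss of the calls is not particular to the 10 genes. Without 1 tenotomy library, the other is assumed to vary like the rest of the libraries. In these fits 0 of the 10 genes passed, while 7 or 8 of the 10 had an unadjusted p under 0.05 (8 of the 10 and 43.3% of all genes with every library), and the adjusted p-values of the 7 genes lay between 0.0502 and 0.201. In those fits each of the 7 kept its direction, with log2 fold changes from 0.63 for Pdgfra to 2.12 for Thy1.

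**Figure D1:**
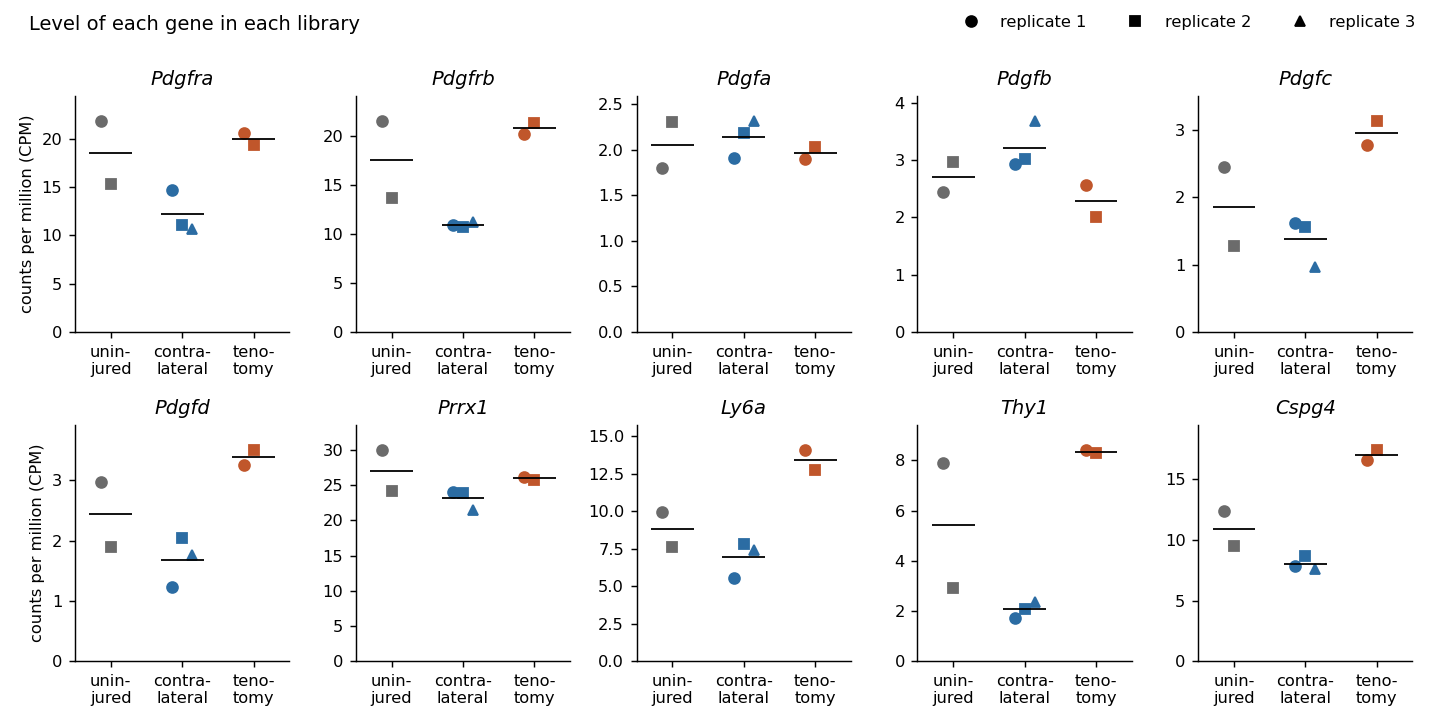
Level of each of the 10 genes in CPM (linear axis from 0) in each library, with the groups along the x axis, replicates by symbol and the group mean as a line. The tenotomy libraries sit above the contralateral ones for 8 genes, below them for Pdgfb and among them for Pdgfa, and the library labelled uninjured replicate 1 sits near the tenotomy libraries for Pdgfra, Pdgfrb and Thy1.

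Pdgfra, on chromosome 5 at 75152292-75198215 (plus strand, GRCm38), encodes the receptor chain that binds ligands A, B and C. It was measured at 14.7, 11.1 and 10.7 CPM in contralateral libraries 1 to 3, at 20.6 and 19.4 CPM in tenotomy libraries 1 and 2, and at 21.8 and 15.3 CPM in uninjured libraries 1 and 2. Both tenotomy libraries lay above all contralateral ones. Such separation held for 9 of the 10 genes, 8 higher and 1 lower, and for 63.7% of all tested genes, 31.9% higher and 31.8% lower. Mean levels of 20.0 ± 0.861 CPM (SD, n = 2) after tenotomy and 12.2 ± 2.20 CPM (SD, n = 3) in contralateral tendon stood 1.64-fold apart. On the log2 scale the fitted difference was 0.72 (SE 0.22), with an edgeR adjusted p of 0.0419. The gene shares 456 of its 10024 exon bases with the antisense gene Gm42802, 166 with the antisense gene Gm42803 and 30 with the microRNA gene Mir7025 on its own strand, and whether counting used strand is not given in the sources used here.

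Pdgfrb, on chromosome 18 at 61045150-61085061 (plus strand), encodes the receptor chain that binds ligands B and D and is a standard marker of pericytes. It was the steadier of the receptors among the contralateral libraries, at 10.9, 10.7 and 11.2 CPM, against 20.2 and 21.3 CPM at the tenotomy site and 21.5 and 13.6 CPM in the uninjured libraries. The groups did not overlap, and the means of 20.7 ± 0.790 CPM (SD, n = 2) and 10.9 ± 0.219 CPM (SD, n = 3) differed 1.90-fold. Its log2 fold change was 0.92 (SE 0.20, edgeR adjusted p = 0.0183). The proportion of the receptors to each other overlapped between the groups: as TPM, the deposited abundance that corrects for transcript length, Pdgfrb over Pdgfra was 0.908 to 1.28 in the contralateral libraries, 1.20 and 1.34 at the tenotomy site, and 1.20 and 1.09 in the uninjured ones.

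Among the ligands, Pdgfc and Pdgfd rose about 2-fold, whereas Pdgfa and Pdgfb did not pass the test. Pdgfc (chromosome 3, 81036416-81214040, plus strand), whose product acts mainly through receptor alpha, stood at 1.61, 1.57 and 0.959 CPM in the contralateral libraries. It reached 2.77 and 3.13 CPM at the tenotomy site, and 2.44 and 1.27 CPM in the uninjured libraries. The tenotomy libraries were the 2 highest of the 7, with means of 2.95 ± 0.254 CPM (SD, n = 2) against 1.38 ± 0.364 CPM (SD, n = 3), 2.14-fold, and a fitted log2 difference of 1.10 (SE 0.31; adjusted p = 0.0343 by edgeR). Of its 5089 exon bases, 147 overlap the antisense gene Gm16000. The rise refers to the count over all transcripts: the coding transcript Pdgfc-201 was estimated at 17.6, 28.0 and 29.9 counts in the contralateral and 33.6 and 35.4 counts in the tenotomy libraries, or 0.0306, 0.0369 and 0.0339 against 0.0361 and 0.0520 TPM. Those counts are not scaled to library size. In CPM the coding transcript was at 0.658, 0.793 and 0.923 in the contralateral and 0.914 and 1.18 in the tenotomy libraries. Both as CPM and as TPM it overlapped between the groups.

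Pdgfd (chromosome 9, 6168584-6378850, plus strand), whose product acts mainly through receptor beta, was counted at 1.24, 2.05 and 1.76 CPM in the contralateral tendon. Its level was 3.26 and 3.50 CPM at the tenotomy site and 2.98 and 1.89 CPM in the uninjured libraries. Again the tenotomy libraries were the 2 highest, at a mean of 3.38 ± 0.167 CPM (SD, n = 2) against 1.68 ± 0.412 CPM (SD, n = 3), 2.01-fold, with a fitted log2 difference of 0.99 (SE 0.26; adjusted p = 0.0267 by edgeR). Where TPM scaled by effective length replaced the estimated counts, Pdgfra, Pdgfc and Pdgfd no longer passed (edgeR adjusted p = 0.0558, 0.0558 and 0.0624), at log2 fold changes of 0.74, 1.16 and 0.86. How many of all genes passed in that setting is not given here, so the loss cannot be read as particular to these genes.

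Pdgfa (chromosome 5, 138976014-138997370, minus strand), a ligand of receptor alpha, was nearly level across the series, at 1.91, 2.19 and 2.32 CPM in the contralateral libraries, 1.90 and 2.03 CPM at the tenotomy site, and 1.80 and 2.31 CPM in the uninjured ones. The groups overlapped, and the log2 fold change of tenotomy against contralateral was -0.13 (SE 0.18, edgeR adjusted p = 0.635). Of its 3119 exon bases, 813 overlap the antisense gene 6330403L08Rik, so part of its count is uncertain. Pdgfb (chromosome 15, 79995874-80014977, minus strand), made by endothelial cells, platelets and macrophages among others and a ligand of both receptors, was at 2.92, 3.02 and 3.68 CPM in the contralateral tendon. At the tenotomy site its level was 2.56 and 2.00 CPM, and the uninjured libraries gave 2.44 and 2.96 CPM. Its tenotomy libraries lay below all contralateral ones, with means of 2.28 ± 0.394 CPM (SD, n = 2) and 3.21 ± 0.413 CPM (SD, n = 3). The log2 fold change was -0.49 (SE 0.19, edgeR adjusted p = 0.0897). In a fit of the tenotomy and contralateral libraries alone it passed (edgeR adjusted p = 0.0287), and that fit called 45.9% of all genes, 22.0% higher and 24.0% lower.

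The make-up of the ligand pool was compared per transcript length, with a ratio that was chosen after its values were seen and has no test. Pdgfc and Pdgfd together gave 31.9%, 36.5% and 26.8% of the summed TPM of the 4 ligands in the contralateral libraries, 54.3% and 56.6% at the tenotomy site, and 50.7% and 35.2% in the uninjured libraries. The group means were 31.7% ± 4.88 (SD, n = 3) for contralateral and 55.5% ± 1.62 (SD, n = 2) for tenotomy, without overlap. These sums take in noncoding transcripts and those annotated as targets of nonsense-mediated decay, to which reads were assigned by estimate, and at the tenotomy site 1 such transcript, Pdgfc-202, held 68.8% and 66.0% of the TPM of Pdgfc. Over coding transcripts only, added after the data were seen, Pdgfc and Pdgfd gave 26.1%, 36.1% and 28.6% of the ligand TPM in the contralateral libraries, 45.5% and 48.0% at the tenotomy site, and 43.3% and 30.9% in the uninjured ones. The tenotomy libraries stayed above the contralateral ones, by a smaller margin. The summed TPM of the receptors over that of the ligands was 1.20, 0.878 and 0.938 in the contralateral libraries, 1.60 and 1.56 at the tenotomy site, and 1.81 and 1.31 in the uninjured ones. Over coding transcripts that ratio was 1.46, 1.08 and 1.02, then 1.91 and 1.87, and 2.08 and 1.40.

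**Figure D2:**
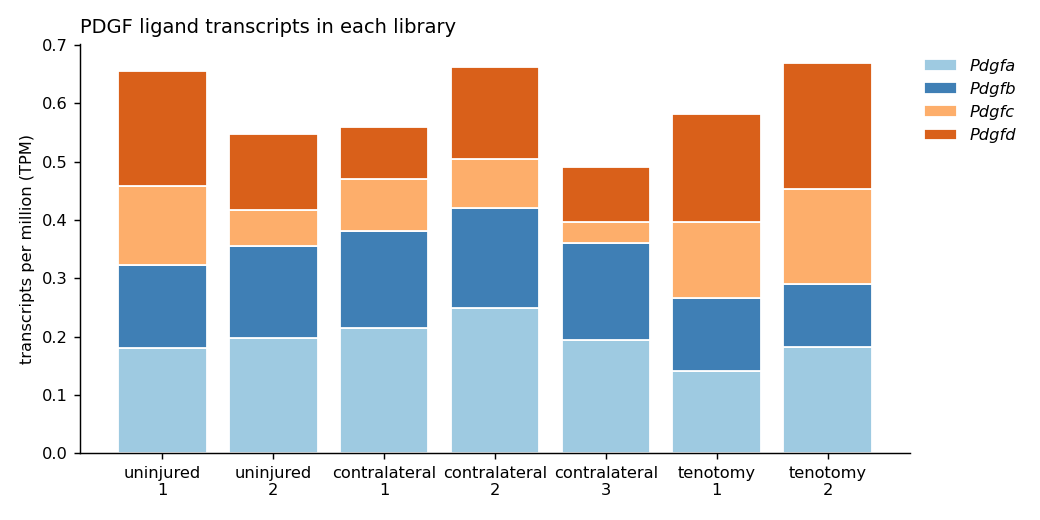
TPM (length-corrected abundance, linear axis from 0) of the 4 PDGF ligands, summed over all transcripts, in each library, stacked, with libraries along the x axis. Pdgfc and Pdgfd (orange shades) make up 54.3% and 56.6% of the bar in the tenotomy libraries and 26.8% to 36.5% in the contralateral ones.

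The progenitor markers did not move as 1 block: Thy1 rose most, Ly6a and Cspg4 about 2-fold, and Prrx1 did not pass the test. Thy1 (chromosome 9, 44043384-44048579, plus strand) encodes the surface glycoprotein CD90 of fibroblasts, mesenchymal stromal cells, T cells and neurons. Its contralateral libraries were at 1.72, 2.11 and 2.38 CPM, the tenotomy libraries at 8.40 and 8.30 CPM, and the uninjured ones at 7.91 and 2.92 CPM. No contralateral library came near the tenotomy level, which the library labelled uninjured replicate 1 almost reached. The means were 8.35 ± 0.0740 CPM (SD, n = 2) and 2.07 ± 0.330 CPM (SD, n = 3), a 4.03-fold difference, and the log2 fold change was 2.01 (SE 0.37, edgeR adjusted p = 0.0167). Only 3.22% of all tested genes had a larger log2 fold change in this comparison.

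T cell markers differed in level. In the contralateral and tenotomy libraries the counts of Trac and Trbc2, T cell receptor chains, were at most 3 and 4, those of Cd3e and Cd3g at most 3 and 7, and those of Lck and Cd2 at most 5 and 8, with Trbc2 at 0 in every contralateral library. Cd3d, a chain of the T cell receptor complex, was higher, at 22, 20 and 25 counts in the contralateral, 31 and 42 in the tenotomy and 46 and 28 in the uninjured libraries. The library labelled uninjured replicate 1 also held the most Cd3e and Cd3g, at 13 and 19 counts. Of 9 T cell genes, Cd3d, Cd4 and Cd8a passed the filter on low counts. Cd4, which macrophages can also carry, rose from 11 counts in each contralateral library to 44 and 41 (log2 fold change 1.85, edgeR adjusted p = 0.0493), and Cd3d did not pass the test (0.63, edgeR adjusted p = 0.204). The summed level of the list was 1.17 to 1.76 CPM in the contralateral, 3.10 to 3.67 CPM in the tenotomy and 1.69 to 5.46 CPM in the uninjured libraries. The part of T cells in the rise of Thy1 was not tested. Rgs5, Kcnj8, Abcc9, Pecam1 and the T cell genes are named as cell type markers after their values were seen.

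Ly6a (chromosome 15, 74994877-74998031, minus strand) encodes the stem cell antigen Sca-1, carried by mouse mesenchymal progenitors, blood stem cells, lymphocytes and some endothelium. The contralateral libraries held it at 5.58, 7.80 and 7.39 CPM, the tenotomy libraries at 14.1 and 12.8 CPM, and the uninjured ones at 9.95 and 7.64 CPM. Both tenotomy libraries lay above the other 5, with a mean of 13.4 ± 0.916 CPM (SD, n = 2) against 6.92 ± 1.18 CPM (SD, n = 3), 1.94-fold. The log2 fold change was 0.95 (SE 0.19, edgeR adjusted p = 0.0167). Ly6a belongs to a family of similar neighbouring genes, so the split of its reads is uncertain.

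Cspg4 (chromosome 9, 56865033-56899870, plus strand) encodes the NG2 proteoglycan of pericytes, glial precursors and mesenchymal progenitors. It was at 7.83, 8.65 and 7.58 CPM in the contralateral libraries, 16.6 and 17.4 CPM at the tenotomy site, and 12.4 and 9.46 CPM in the uninjured libraries. All 3 groups were separate, in the order contralateral, uninjured, tenotomy, although neither difference from the uninjured group passed the test. Means of 17.0 ± 0.548 CPM (SD, n = 2) and 8.02 ± 0.561 CPM (SD, n = 3) gave a 2.12-fold difference and a fitted log2 difference of 1.08 (SE 0.16; adjusted p = 0.0167 by edgeR).

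Prrx1 (chromosome 1, 163245119-163313710, minus strand), a homeobox transcription factor of limb bud mesenchyme and of progenitors in adult connective tissue, was the steadiest of the markers. Its levels were 24.0, 23.8 and 21.4 CPM in the contralateral, 26.2 and 25.7 CPM in the tenotomy and 29.9 and 24.1 CPM in the uninjured libraries. The tenotomy libraries lay just above the contralateral ones, at 26.0 ± 0.325 (SD, n = 2) against 23.1 ± 1.44 CPM (SD, n = 3). The log2 fold change of 0.17 (SE 0.17) did not pass the test (edgeR adjusted p = 0.478).

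**Figure D3:**
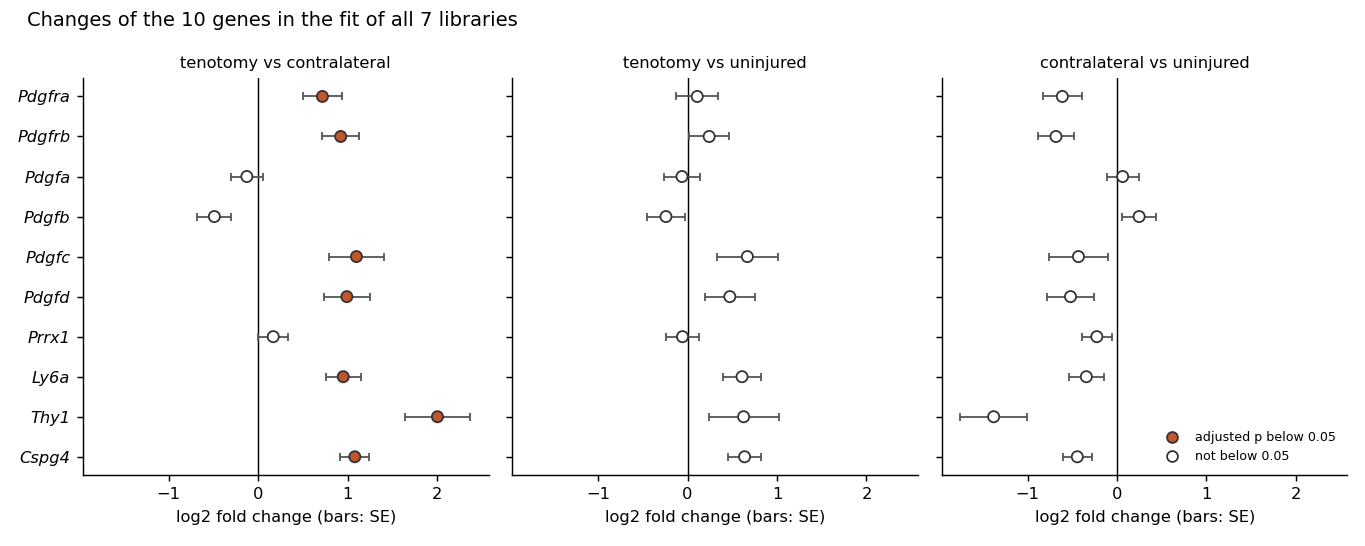
Log2 fold change of each gene in the 3 comparisons (x axis, bars are the standard error) from the edgeR fit of all 7 libraries, with filled points where the adjusted p was below 0.05. In tenotomy against contralateral 7 genes are filled, from 0.72 for Pdgfra to 2.01 for Thy1, and no gene is filled in either comparison with the uninjured group.

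Compared between genes per transcript length, Ly6a and Prrx1 were the 2 most abundant of the 10 in every library. Ly6a had a mean of 1.59 ± 0.289 TPM (SD, n = 3) in the contralateral and 2.88 ± 0.0825 TPM (SD, n = 2) in the tenotomy libraries, and Prrx1 0.857 ± 0.232 and 0.895 ± 0.0567 TPM. Thy1 changed place: it ranked 6 of 10 in each contralateral library (mean 0.195 ± 0.0195 TPM) and 3 of 10 in each tenotomy library (mean 0.766 ± 0.0511 TPM), above both receptors. In uninjured replicates 1 and 2, as labelled, it ranked 3 and 5, at 0.821 and 0.280 TPM. Pdgfc ranked last in the contralateral and uninjured libraries, and Pdgfb last at the tenotomy site. These TPM are relative to a total that includes the 5 largest features, so they are used to order genes within a library.

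The upstream promoter sequence of 4 genes that rose and of Pdgfa, which did not, is shown from RefSeq (GRCm38.p6). Each sequence reads 5′ to 3′ on the strand of the gene and is cut before the first exon base in RefSeq or GENCODE M21. Promoter windows were examined for 6 of the 10 genes, Pdgfra, Pdgfa, Pdgfc, Pdgfd, Prrx1 and Cspg4. Pdgfb, Ly6a and Thy1 had no entry among the promoter windows used. Pdgfrb was left out rather than found to be unmatched, so its promoter was not examined for motifs. Of the 2 windows of Pdgfa, that shown ends at the start of its main coding transcript Pdgfa-202, which held 62.7% to 94.9% of the gene's counts over the 7 libraries. Capitals mark matches, on either strand, to the motifs searched. The first was the GC box, spelled GGGCGG, which reads CCGCCC from the opposite side. The second was the AP-1 site, bound by Fos and Jun proteins and spelled TGANTCA. The TATA box, spelled TATAAA, and the box named for its letters CCAAT were the others, and no matches overlapped here.
Pdgfra, chr5:75152001-75152250, plus strand: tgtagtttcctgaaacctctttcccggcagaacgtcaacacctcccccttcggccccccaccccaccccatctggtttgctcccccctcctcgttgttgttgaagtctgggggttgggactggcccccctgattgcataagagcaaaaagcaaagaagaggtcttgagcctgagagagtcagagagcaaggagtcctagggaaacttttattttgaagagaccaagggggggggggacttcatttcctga
Pdgfc, chr3:81036166-81036415, plus strand: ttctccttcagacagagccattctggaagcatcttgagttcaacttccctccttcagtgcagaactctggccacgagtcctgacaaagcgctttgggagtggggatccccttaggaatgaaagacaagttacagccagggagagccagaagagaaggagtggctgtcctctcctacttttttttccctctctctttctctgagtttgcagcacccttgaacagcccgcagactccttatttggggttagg
Pdgfd, chr9:6168236-6168485, plus strand: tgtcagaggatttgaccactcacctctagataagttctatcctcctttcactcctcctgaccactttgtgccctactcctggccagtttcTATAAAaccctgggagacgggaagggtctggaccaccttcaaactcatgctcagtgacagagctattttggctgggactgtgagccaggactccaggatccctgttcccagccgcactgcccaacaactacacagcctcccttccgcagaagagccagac
Cspg4, chr9:56864854-56865032, plus strand: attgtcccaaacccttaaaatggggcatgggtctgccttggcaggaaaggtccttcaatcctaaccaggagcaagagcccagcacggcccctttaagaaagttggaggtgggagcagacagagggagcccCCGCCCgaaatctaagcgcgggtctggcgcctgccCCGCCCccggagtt
Pdgfa, chr5:138995038-138995194, minus strand: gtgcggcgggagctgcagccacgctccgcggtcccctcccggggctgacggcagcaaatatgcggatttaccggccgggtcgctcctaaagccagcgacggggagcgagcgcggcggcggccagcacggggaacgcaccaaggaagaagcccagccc

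No motif was common to these windows. Pdgfd held 1 TATA box, present in 12.4% of the first 250 bases of 32851 mouse promoter windows. Cspg4 held 2 GC boxes in 179 bases, a length in which 20.9% of windows held at least 1. The windows shown for Pdgfra, Pdgfc and Pdgfa held none of the motifs. The other window of Pdgfa lay between an exon of the gene and the noncoding transcript Pdgfa-207 (0% to 6.01% of the gene's counts). Its 117 bases held 1 GC box. Of all windows, 12.4% held a GC box in their first 117 bases. The Pdgfa stretch ended at the start site, so that share is from an unlike position. The AP-1 site, which 6.75% of windows of 250 bases hold, was in none of those shown. Base composition ranged from 50.8% G and C in Pdgfc to 72.0% in Pdgfa, beside a median of 52.4% over all promoter windows.

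Of 12 genes that activate the ligands or regulate the receptors, 11 passed the filter, and 6 of these rose and 0 fell, with a median log2 fold change of 0.57. The largest rises were those of Pdgfrl, a secreted protein similar to the ligand-binding part of the receptors, at 9.54 ± 0.181 CPM (SD, n = 2) against 2.25 ± 0.520 CPM (SD, n = 3), and of Ptprj, a phosphatase that acts on PDGF receptor beta, at 9.66 ± 0.579 against 4.37 ± 0.370 CPM. Their log2 fold changes were 2.09 (SE 0.40, edgeR adjusted p = 0.0167) and 1.14 (SE 0.34, edgeR adjusted p = 0.0417). Plat, named after its values were seen, encodes tissue plasminogen activator, which activates PDGF-C, and rose from 1.62 ± 0.399 to 3.46 ± 0.285 CPM (log2 fold change 1.08, edgeR adjusted p = 0.0167). Plau, named in the same way, encodes urokinase, which activates PDGF-D, and was at 2.87 ± 0.289 and 4.26 ± 0.364 CPM (edgeR adjusted p = 0.0760).

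Of 22 genes for adaptors, kinases and other transducers below the receptors, 4 rose and 3 fell, with a median log2 fold change of 0.04. These counts are close to the background, in which 13.6% of all tested genes were higher and 15.4% lower. The adaptor gene Shc1 and the kinase gene Akt1 were higher by 0.76 (SE 0.16) and 0.60 (SE 0.13) on the log2 scale (edgeR adjusted p = 0.0172 and 0.0175). Ptpn11, encoding the phosphatase SHP2, fell by 0.92 (SE 0.19) and Pik3r1, encoding a PI3 kinase regulatory subunit, fell by 0.79 (SE 0.25) on the log2 scale (edgeR adjusted p = 0.0167 and 0.0479). In the fit of the tenotomy and contralateral libraries alone, 5 of the 22 rose and 7 fell. Immediate early genes, which growth factors and many other stimuli induce, rose in 8 of 14 cases and fell in 1, with a median of 1.15. Egr1 went from 1.65 ± 0.0980 to 6.24 ± 0.863 CPM and Fosl2 from 7.27 ± 0.604 to 18.0 ± 0.0812 CPM, whereas Srf went from 5.27 ± 0.999 to 2.81 ± 0.275 CPM (edgeR adjusted p = 0.0143, 0.0167 and 0.04996).

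Other progenitor markers rose more often than they fell: of 27 genes, 13 rose and 2 fell, with a median log2 fold change of 0.52. The largest rises among those above the level set for naming were Ctsk, the collagen-degrading protease cathepsin K, from 3.25 ± 0.760 to 25.7 ± 0.417 CPM (log2 fold change 2.99, edgeR adjusted p = 0.0167), and Pdpn, the surface protein podoplanin, from 0.934 ± 0.143 to 4.60 ± 0.0451 CPM (2.30, edgeR adjusted p = 0.0171). Nes, encoding the intermediate filament nestin, fell by 1.04 on the log2 scale and Tppp3, a marker of tendon sheath progenitors, fell by 0.73 (edgeR adjusted p = 0.0199 and 0.0394). Ctsk also marks osteoclasts and Pdpn lymphatic endothelium. The summed level of the list was 299.3 to 383.9 CPM in the contralateral, 512.7 to 514.8 CPM in the tenotomy and 387.8 to 500.3 CPM in the uninjured libraries.

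Markers of other cells that can carry these genes moved in several directions between the same libraries. Mural cell markers, of which 8 of 10 were tested, fell in 5 cases and rose in 0, with a median of -1.43. Their summed level was 355.9 to 381.7 CPM in the contralateral and 93.0 to 94.0 CPM in the tenotomy libraries. Of these sums Des alone gave 185.1 ± 15.4 CPM (SD, n = 3) and 20.3 ± 0.944 CPM (SD, n = 2). Pdgfrb and Cspg4 rose where this sum was lower. Myh11, a smooth muscle myosin, fell by 2.24 and Des, encoding desmin of muscle and mural cells, fell by 3.19 on the log2 scale (edgeR adjusted p = 0.0167 for each). The pericyte markers Rgs5 and Abcc9 fell by 1.07 and 1.80 on the log2 scale, and Kcnj8 was at 1.71 ± 0.40 and 1.41 ± 0.39 CPM (edgeR adjusted p = 0.0238, 0.0175 and 0.603). Des and Abcc9 are also expressed by skeletal muscle.

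Of 11 endothelial markers 0 rose and 2 fell, beside 15.4% of all tested genes called lower, with a median of -0.23. The VEGF receptor genes Flt1 and Kdr fell by 1.62 and 0.74 on the log2 scale (edgeR adjusted p = 0.0167 and 0.0484), and Pecam1 was at 17.9 ± 0.43 and 17.7 ± 0.40 CPM. The summed endothelial level was 87.0 to 101.2 CPM in the contralateral and 69.1 to 78.5 CPM in the tenotomy libraries. All 10 macrophage and leukocyte markers rose, with a median of 2.37 and sums of 30.0 to 36.4 against 133.7 to 136.6 CPM. Lyz2, the macrophage lysozyme, rose by 2.57 and Adgre1, the macrophage protein F4/80, by 2.43 on the log2 scale (edgeR adjusted p = 0.0197 and 0.0167).

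Skeletal muscle RNA differed more than any of these. All 20 muscle genes fell, with a median of -3.35, and their summed level was 24827 to 27729 CPM in the contralateral, 2184 and 2196 CPM in the tenotomy, and 2781 and 18788 CPM in the uninjured libraries. Myh2, a myosin of fast fibres, went from 970.5 ± 91.7 to 36.9 ± 1.15 CPM and Ckmt2, a mitochondrial creatine kinase, from 80.1 ± 18.0 to 3.49 ± 0.0130 CPM (edgeR adjusted p = 0.0167 for each). With the muscle genes and the mitochondrially encoded genes removed before scaling, the same count of 7 of the 10 genes rose, and the log2 fold change of Pdgfra was 0.73 and that of Cspg4 1.09. That step leaves the other genes of muscle fibres in place, and the part of the tissue make-up in the rises of the 10 genes was not tested. How many of all genes passed after that removal is not given here, so the unchanged count cannot be read as particular to the 10 genes. The tendon list rose in 6 of 10 genes and fell in 0, with a median of 1.37. Its largest rises were Bgn, the matrix proteoglycan biglycan, from 36.9 ± 3.51 to 232.7 ± 10.8 CPM, and Col1a1, the main collagen of tendon and bone, from 439.2 ± 57.4 to 2575 ± 12.7 CPM (edgeR adjusted p = 0.0167 and 0.0152). The summed tendon level was 915.4 to 1279.1 CPM in the contralateral and 5012.9 to 5042.9 CPM in the tenotomy libraries. In the uninjured libraries it was 4008.6 to 4613.8 CPM, nearer to the tenotomy level.

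**Figure D4:**
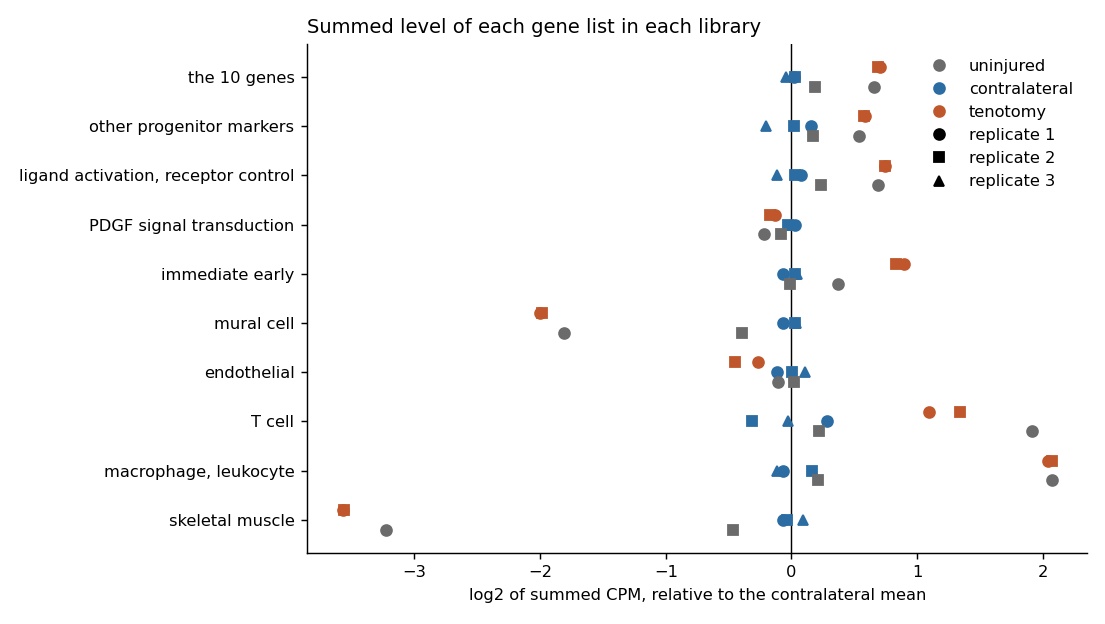
Summed CPM of each gene list in each library, as log2 relative to the mean of the contralateral libraries (x axis), with groups by colour and replicates by symbol. At the tenotomy site the 10 genes and the other progenitor, ligand activation, immediate early, T cell and macrophage lists lie to the right of the contralateral libraries, and the mural, endothelial and skeletal muscle lists to the left.

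The sample titles carry numbers that fall in 3 series, which no label calls a batch. The contralateral libraries and tenotomy replicate 1 share the first series, so that difference can be read within it from 1 tenotomy library. Tenotomy replicate 1 minus the contralateral mean was 0.77 for Pdgfra, 0.88 for Pdgfrb, 1.01 for Pdgfc, 0.96 for Pdgfd, 1.03 for Ly6a, 2.00 for Thy1 and 1.05 for Cspg4 on the log2 CPM scale. For the genes that did not pass, it was -0.16 for Pdgfa, -0.31 for Pdgfb and 0.18 for Prrx1. These values come from libraries that are also in the fit, so they are not independent of the fitted changes above. For Pdgfb, tenotomy replicate 2 minus the contralateral mean was -0.66. Tenotomy replicate 2 shares its series with the library labelled uninjured replicate 1, and there the differences ranged from -0.28 for Pdgfb to 0.49 for Cspg4.

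In the comparison of tenotomy with uninjured tendon, 0 of the 10 genes and 0 of the 16028 tested genes (0%) passed the edgeR test, with a smallest adjusted p of 0.261 over all genes. At an unadjusted p under 0.05 there were 2 of the 10 and 1741 genes in all (10.9%), and DESeq2 called 0 of the 10 and 145 genes. The 2 were Cspg4 (log2 fold change 0.64, SE 0.18) and Ly6a (0.61, SE 0.22), both at an edgeR adjusted p of 0.450. Both tenotomy libraries lay above both uninjured ones for 5 of the 10 genes, Pdgfc, Pdgfd, Ly6a, Thy1 and Cspg4, with 0 of the 10 separated the other way. Such separation held for 40.5% of all tested genes, 20.1% higher and 20.4% lower. The values turned on the uninjured library used. Without uninjured replicate 1, 6 of the 10 were higher at the tenotomy site, namely Pdgfrb (0.61), Pdgfc (1.21), Pdgfd (0.83), Ly6a (0.81), Thy1 (1.51) and Cspg4 (0.84), with edgeR adjusted p-values from 0.000102 to 0.0342, and 4360 of all genes passed. Without uninjured replicate 2, 0 of the 10 and 11 of all genes passed, and the log2 fold changes ranged from -0.20 for Prrx1 to 0.46 for Cspg4. In each of these fits the uninjured group is 1 library, assumed to vary like the others.

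The uncut limb of injured mice was compared with tendon of mice without injury, and again 0 of the 10 genes and 0 of all genes (0%) passed the edgeR test, with a smallest adjusted p of 0.123. At an unadjusted p under 0.05 there were 4 of the 10 and 3084 genes in all (19.2%). The log2 fold changes of those 4 were -0.61 for Pdgfra (SE 0.22), -0.68 for Pdgfrb (SE 0.20), -1.38 for Thy1 (SE 0.37) and -0.44 for Cspg4 (SE 0.16), at edgeR adjusted p-values from 0.215 to 0.231. All contralateral libraries lay below both uninjured ones for these 4 genes and Prrx1, 5 of the 10, and above them for 0. Over all tested genes 35.5% were separated in this way, 16.6% lower and 18.9% higher. DESeq2 called Thy1 (adjusted p = 0.0439) and 223 genes in all. With the title series as a covariate, uninjured replicate 2 was alone in its series, so this comparison rested on uninjured replicate 1. That library was linked to the contralateral ones only through the tenotomy libraries. The log2 fold changes then ranged from -1.94 for Thy1 to 0.35 for Pdgfa, with -0.94 for Pdgfra and -0.90 for Pdgfrb.

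This comparison also turned on 1 library. Without uninjured replicate 2, 8 of the 10 genes were lower in the contralateral tendon, all but Pdgfa and Pdgfb, from -0.37 for Prrx1 to -1.92 for Thy1, with edgeR adjusted p-values from 4.15e-06 to 0.0369, and 5430 of all genes passed. Without uninjured replicate 1, 0 of the 10 and 129 of all genes passed, and Pdgfc changed sign from -0.43 to 0.11. The library labelled uninjured replicate 1 also had a summed muscle level of 2781 CPM and a macrophage level of 136.2 CPM, against 18788 and 37.5 CPM in uninjured replicate 2. The part of these differences in the results was not tested. The 3 comparisons share libraries and are not independent of each other.

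**Figure D5:**
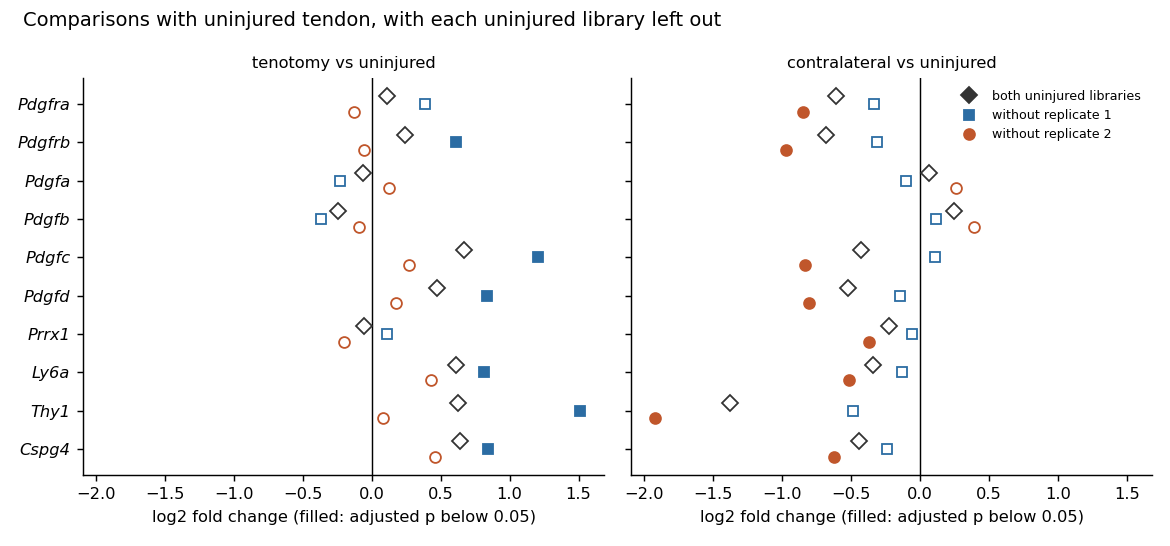
Log2 fold change (x axis) of each gene in the 2 comparisons with the uninjured group, from all 7 libraries (diamonds), without uninjured replicate 1 (squares) and without uninjured replicate 2 (circles), filled where the edgeR adjusted p was below 0.05. Against tenotomy, 6 squares and 0 circles are filled, and against contralateral 0 squares and 8 circles.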

How the data were processed

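RNA was sequenced from 7 libraries of mouse hindlimb tendon, grouped by the condition label, with replicates numbered in accession order. Trizol, a purification column and a TruSeq RNA kit were used, per the labels' protocols. The submitters' processing notes name FastQC 0.11.4, kallisto and GRCh38, a human build, although the deposited transcript identifiers are mouse ones. Per the file headers, each library lists estimated counts and TPM for 103639 transcripts. The deposited estimated counts are fractional and carry no normalization. In the deposited TPM, abundances are scaled by effective length.

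Transcript identifiers were matched without version to GENCODE M21 (GRCm38): 101510 matched, 57625 with the same version, and the 2129 others were kept as single features, 44818 features in all. Estimated counts were summed per gene and rounded, so how reads were split between isoforms does not enter, whereas their split between similar genes does. Features passing filterByExpr (minimum count 10, by group) numbered 16028, called genes in the text. TMM scaling and the quasi-likelihood test of edgeR 4.0.16 (R 4.3.3) were applied in 1 fit of 3 group means with 4 residual degrees of freedom. P-values were adjusted by Benjamini-Hochberg at 0.05. CPM in the text are TMM-scaled. A prior count of 2 was used for log2 CPM, and the fitted fold changes used the default of edgeR. The standard error was derived from the log2 fold change and its F statistic. Lists are described by counts and medians, without a set test.

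All 10 genes are reported. From each list the 2 largest rises and 2 largest falls among genes past the threshold, with a mean log2 CPM of at least 1, are named, together with Scx and Tnmd and the 3 genes of nearest pattern to Pdgfra, Pdgfrb and Cspg4. The genes and the lists were chosen with earlier results of these data known. On simulated counts for the same 16028 genes with 200 changed 4-fold at the tenotomy site, edgeR recovered 162 and called 5 others against contralateral, and recovered 148 with 8 others against uninjured. DESeq2 1.42.0, other scalings, no filter, fits of the compared groups, the title series as a covariate, length-scaled TPM, removal of muscle and mitochondrial genes, and leaving out each library were the alternatives. Every pair of libraries differed by more than counting noise, the closest being the tenotomy pair (chi-square per degree of freedom 1.62). Promoter sequences are from RefSeq.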

Additional observations from a re-analysis of the deposited data

How the results depend on the processing

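No paired analysis was possible because the replicates were numbered in accession order and the labels do not tie tenotomy and contralateral limbs to the same mouse. For tenotomy against contralateral, 4643 genes and 7 of the 10 passed the edgeR test. A fit of only these groups gave 7364 genes and 8 of the 10, with a common dispersion of 0.00866 against 0.0465 over all 7 libraries. Length-scaled TPM gave 4 of the 10, and the matching number for all genes is not given here. Leaving out 1 library gave 0 to 7326 genes and 0 to 8 of the 10: 0 without any 1 contralateral or tenotomy library (4487 to 6139 genes at an unadjusted p under 0.05), and 7326 or 7324 without uninjured replicate 1 or 2. Each of these fits has 1 library fewer, and the cause was not tested further. No called change of the 10 genes reversed under any alternative run.

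For tenotomy against uninjured, where 0 genes passed, DESeq2 called 145, no filter 15 and the title series as a covariate 4, and leaving out 1 library gave 0 to 4360 genes and 0 to 6 of the 10. For contralateral against uninjured, also 0, DESeq2 called 223 genes and 1 of the 10, no filter 337 and 1, the title series as a covariate 2466 and 3, and removal of muscle and mitochondrial genes 1 gene, while leaving out 1 library gave 0 to 5430 genes and 0 to 8 of the 10. The cause was not tested. With the title series as a covariate, uninjured replicate 2 is alone in its series. Both comparisons with the uninjured group then rest on uninjured replicate 1. Uncalled values changed sign for Pdgfa, Pdgfra, Pdgfrb and Prrx1 in tenotomy against uninjured and for Pdgfa and Pdgfc in contralateral against uninjured. Scaling moved the median of all genes by less than 0.1 on the log2 scale. The 10 genes were read at 31 to 963 counts per library. Over coding transcripts only, an alternative chosen after the data were seen, the tenotomy mean of the Pdgfc and Pdgfd share of ligand TPM was 46.8% rather than 55.5%.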

Other observations

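Several ligand and marker genes have more than 1 transcript, and the shares that follow are estimates made when reads were assigned to transcripts, given without a test. For Pdgfc, the protein-coding transcript Pdgfc-201 held 35.3% ± 3.31 (SD, n = 2) of the counts at the tenotomy site, 62.6% ± 29.6 (SD, n = 3) in the contralateral and 47.3% ± 6.86 (SD, n = 2) in the uninjured libraries. The transcript Pdgfc-202, annotated as a target of nonsense-mediated decay, held 62.5% ± 2.44, 29.5% ± 25.7 and 48.9% ± 6.42. The contralateral share of Pdgfc-202 ran from 0 to 47.1% between libraries of 31 to 55 counts for the gene, and the 2.14-fold difference of Pdgfc refers to the count summed over its transcripts. Pdgfd-201 held 73.4% ± 2.85 at the tenotomy site and 57.9% ± 9.16 in the contralateral tendon. Pdgfra-201 held 78.0% to 96.3% and Ly6a-204 61.0% to 77.5% of their gene's counts over the 7 libraries. Prrx1-201 held 41.1% to 60.4%, and Cspg4, Pdgfb and Thy1 have 1 transcript each in the deposited tables.

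The genes whose pattern over the 7 libraries was nearest to a receptor were found by the root mean square difference of centred log2 CPM among 7173 genes. For Pdgfra they were Plxdc2 (0.06), Pld2 (0.06) and Scrn1 (0.07), for Pdgfrb Gpr137b (0.05), Lasp1 (0.05) and Cap1 (0.05), and for Cspg4 Myadm (0.07), Sh3kbp1 (0.08) and Kctd17 (0.09). Within the 10 genes the nearest pairs were Pdgfd with Ly6a (0.13), Ly6a with Cspg4 (0.15) and Pdgfra with Pdgfrb (0.17), and the most distant was Pdgfb with Thy1 (1.14).

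Other lists, for tenotomy against contralateral by edgeR, gave these counts. Cartilage genes rose in 8 of 9 tested of 10, with a median log2 fold change of 4.39: Col2a1, the collagen of cartilage, went from 0.490 ± 0.143 to 125.7 ± 0.451 CPM and Acan, encoding aggrecan, from 0.842 ± 0.234 to 83.4 ± 3.78 CPM. Proliferation genes rose in 5 of 7, with Mki67 from 0.804 ± 0.0585 to 7.05 ± 0.261 CPM. Adipocyte genes fell in 4 of 8 (Retn by 1.94 and Plin1 by 1.52 on the log2 scale). Of 3 tested platelet genes 2 rose, Itgb3 by 1.48, and of 5 tested erythroid genes 2 rose, Hbb-bs by 0.53 and Hba-a2 by 0.51. In both comparisons with the uninjured group, 0 genes of these lists passed.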
